A study of Saccharomyces cerevisiae with 134 samples.

Results

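Trimethylation of histone H3 at lysine 36 (H3K36me3) was followed over the long genes of budding yeast, defined as the genes listed in all of the study's gene tables of the mark whose length was 3500 bases or more. There were 252 such genes among 5355. Their median length was 4336.5 bases, from 3510 to 14733, and 64 of them reached 5000 bases. Another 82 genes of this length in the RNA table had no entry in the mark tables and were not analysed here.

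H3K36me3 is laid down over transcribed gene bodies by Set2, the only H3K36 methyltransferase of this yeast, which travels with elongating RNA polymerase II. The mark recruits the Rpd3S histone deacetylase complex, which limits initiation from inside genes. Rph1 is a demethylase that removes H3K36 methylation. LANS-Set2 is a Set2 fused to a light-activated nuclear shuttle, which enters the nucleus in blue light and leaves it in the dark.

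All libraries described came from strain BY4741 with the genotype set2delta, expressing LANS-Set2. In the dark-to-light course, chromatin was collected at 0, 20, 40 and 60 min after blue light was switched on. In the light-to-dark course it was collected at 0, 30, 60 and 90 min after the light was switched off, in set2delta cells and in set2delta;rph1delta cells, which also lack Rph1. Each time point had 3 chromatin immunoprecipitation libraries with an H3K36me3 antibody raised in the laboratory, 36 in all, and 23 RNA libraries covered the 2 set2delta courses. No label says whether replicates were separate cultures, so p-values measure only the spread between these libraries, which may be technical.

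The values of the mark are the authors' signal per gene. Their unit, scaling and depth are not given in the sources used here, and each course has a table of its own, so levels were compared within a course. Library totals of the mark differed: in set2delta;rph1delta cells replicate 3 had the highest median over all genes at each of the 4 times (0.244 at 0 min against 0.168 and 0.176), and in the dark-to-light course the 60 min medians ran from 0.0843 to 0.113. Long and matched genes were therefore compared within each library. Whether a shift of a whole library acts equally on both classes was not tested.

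At the lit start of the light-to-dark course of set2delta cells, FAS1 and ACC1 stood at the top of the long genes, with mean signals of 0.582 and 0.565, and HFM1 and AUS1 near the bottom, with 0.061 and 0.0668. The windows around the annotated start codons of the 2 highest and the 2 lowest members are shown because they are the ends of that range. They were chosen after their values were seen, leaving out repeated features and the near-identical pair VTH1 and VTH2. Each runs from 250 bases before the start codon to 50 bases into the gene, 5′ to 3′ on the gene's strand, from the RefSeq genome of assembly R64, and TATAAA on either strand is in capitals. FAS1 (YKL182W), the beta subunit of fatty acid synthase, lies on the plus strand (chrXI:100421-100720). ACC1 (YNR016C), acetyl-CoA carboxylase, lies on the minus strand (chrXIV:661325-661624). HFM1, a meiotic DNA helicase, lies on the minus strand (chrVII:31587-31886), and AUS1, a sterol uptake transporter, on the plus strand (chrXV:349429-349728).
FAS1: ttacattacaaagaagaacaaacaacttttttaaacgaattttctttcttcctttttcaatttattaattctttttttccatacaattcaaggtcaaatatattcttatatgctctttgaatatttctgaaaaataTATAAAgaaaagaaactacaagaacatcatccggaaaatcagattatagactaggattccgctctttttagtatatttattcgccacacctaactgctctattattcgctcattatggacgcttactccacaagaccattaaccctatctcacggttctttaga
ACC1: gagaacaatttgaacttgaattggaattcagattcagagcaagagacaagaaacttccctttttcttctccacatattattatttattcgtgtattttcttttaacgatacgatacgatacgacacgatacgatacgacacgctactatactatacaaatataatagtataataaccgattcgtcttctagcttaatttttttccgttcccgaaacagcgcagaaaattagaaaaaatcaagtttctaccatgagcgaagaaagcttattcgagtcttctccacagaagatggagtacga
HFM1: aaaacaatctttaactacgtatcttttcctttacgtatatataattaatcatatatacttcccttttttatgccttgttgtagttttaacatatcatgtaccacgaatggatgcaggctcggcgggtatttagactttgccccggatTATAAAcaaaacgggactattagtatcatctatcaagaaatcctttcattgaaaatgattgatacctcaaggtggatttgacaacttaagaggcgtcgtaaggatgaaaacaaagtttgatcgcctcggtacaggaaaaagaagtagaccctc
AUS1: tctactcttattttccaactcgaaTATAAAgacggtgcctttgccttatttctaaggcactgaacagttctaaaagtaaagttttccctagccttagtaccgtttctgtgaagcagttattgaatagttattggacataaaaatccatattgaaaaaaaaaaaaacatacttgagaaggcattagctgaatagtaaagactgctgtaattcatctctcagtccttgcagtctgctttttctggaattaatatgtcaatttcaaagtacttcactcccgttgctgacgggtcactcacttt

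TATAAA was present once in the windows of FAS1, HFM1 and AUS1 and absent from that of ACC1, so these letters did not separate the high from the low genes. Over all long genes 103 of 252 start windows held it (40.9%), against 45.0% of the matched genes described next and 44.7% of 5244 annotated genes. The long genes were slightly poorer in G and C, with a median of 37.9% against 39.2% in the matched genes and 39.6% in all annotated genes. Of the long genes 6 (2.38%) lay within 20000 bases of a chromosome end, against 1.59% of the matched genes and 3.78% of all annotated genes.

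To ask whether length goes with the mark beyond RNA level, each long gene was paired with a gene of 1000 to 2000 bases of nearly the same RNA level, in TPM (transcript abundance scaled to a common library total), in dark set2delta cells. Pairs were found for 251 long genes. The study has no RNA library of set2delta;rph1delta cells, so in that course the pairs are matched only by the RNA of set2delta cells. FAS1, the most highly expressed at 1073 TPM, had none. The median RNA level was 23.7 TPM in the paired long genes and 23.8 TPM in their partners, whose median length was 1407 bases.

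Long genes carried more of the mark than their RNA-matched partners at every time point of every course. In the dark, at the start of the dark-to-light course, the median signal of the long genes was 0.0361, 0.0436 and 0.0405 in the 3 libraries, and that of the matched genes 0.0229, 0.0275 and 0.0252. After 60 min of light the long genes stood at 0.146, 0.174 and 0.198 and the matched genes at 0.102, 0.121 and 0.139. All 3 values of the long genes lay above all 3 of the matched genes at both times.

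**Figure D1:**
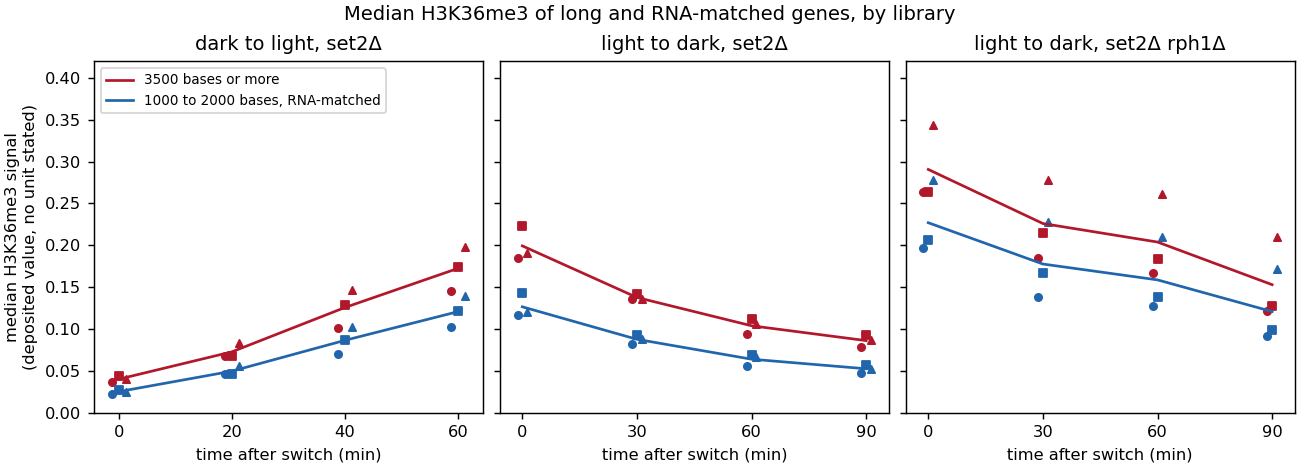
Median H3K36me3 signal (deposited value, no unit stated) against minutes after the light switch, for 251 long genes and their RNA-matched partners. Points are the 3 libraries per time, with a marker for each replicate number, and lines join their means. The long genes lie above the matched genes in each library, from 0.0401 against 0.0252 in the dark to 0.199 against 0.127 at the lit start of the set2delta loss course.

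In the light-to-dark course of set2delta cells the long genes began at 0.185, 0.222 and 0.191 and the matched genes at 0.117, 0.143 and 0.12. By 90 min of darkness they had reached 0.0785, 0.0932 and 0.0866 against 0.0478, 0.0575 and 0.0522. The classes did not overlap at either time. Without Rph1 the long genes began at 0.264, 0.264 and 0.344 and ended at 0.122, 0.128 and 0.21, while the matched genes went from 0.197, 0.206 and 0.278 to 0.0919, 0.0991 and 0.172, so that the classes overlapped between libraries but not within one.

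Taken within each library, the median log2 signal of the long genes exceeded that of the matched genes by 0.58 ± 0.017 (SD, n = 3) in the dark and by 0.50 ± 0.0062 after 60 min of light. In the light-to-dark course the excess was 0.63 ± 0.013 at 0 min and 0.65 ± 0.014 at 90 min. In the course without Rph1 it was 0.34 ± 0.05 and 0.32 ± 0.044. These log2 values carry a pseudocount of 0.1 times the table's median. With 1 times the median the same excesses were 0.25, 0.38, 0.47, 0.37, 0.23 and 0.17, smaller by over 1.5 times in 3 of the 6 and of the same sign. The excess was positive in all 36 libraries. With 3 libraries a time, an exact test of the sign cannot reach the 0.05 threshold, so none is given.

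The excess in set2delta;rph1delta cells, 0.298 to 0.396 per library at 0 min, was lower than the 0.617 to 0.642 in set2delta cells. Replicate 3, the library set with the highest signal, had the smallest excess there at all 4 times, and without it the excess was 0.37 at 0 min and 0.34 at 90 min. The values come from separately deposited tables, the pairs are not known to be matched for RNA without Rph1, and the difference between the genotypes was not tested.

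**Figure D2:**
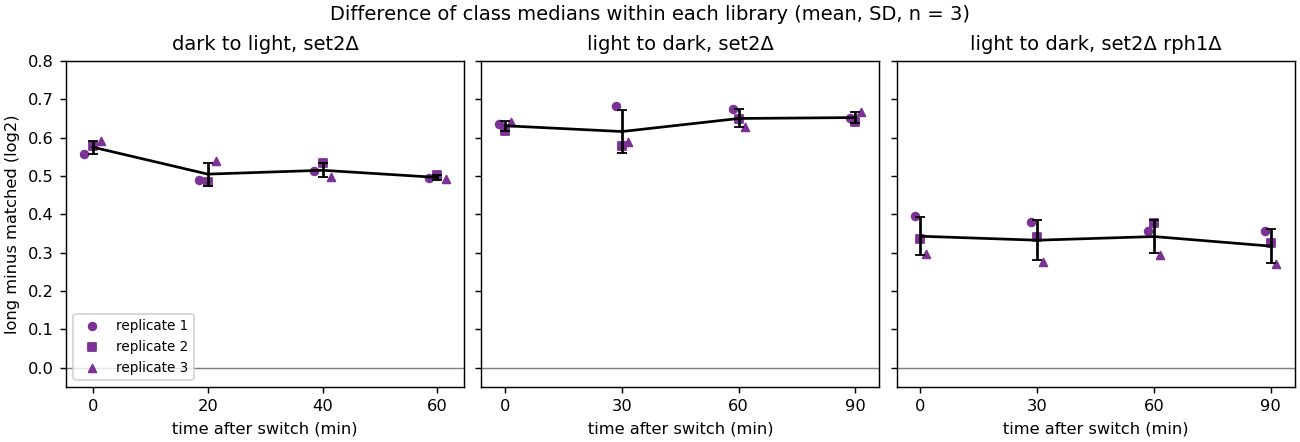
Median log2 signal of long genes minus that of matched genes (vertical axis) in each library against minutes after the light switch. Points are libraries, lines and bars the mean and SD of 3. All 36 libraries lie above 0, with means from 0.50 to 0.65 in set2delta cells and from 0.32 to 0.34 in set2delta;rph1delta cells.

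Pair by pair, the long gene had the higher mean signal in 196 of 251 pairs in the dark (78.1%) and in 192 after 60 min of light (76.5%). It was the higher in 191 pairs at 0 min and 198 at 90 min of the light-to-dark course, and in 185 and 181 in the course without Rph1. The remaining long genes carried less of the mark than their partner.

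The excess was seen in each of 4 ranges of RNA level, inside which the genes were not matched for RNA. When the long genes were split by TPM into 4 groups of 63 and each group set against all genes of 1000 to 2000 bases in the same TPM range, the difference at 0 min of the light-to-dark course was 0.62 ± 0.03 (log2, SD over 3 libraries) in the lowest group, 0.49 ± 0.016 in the second, 0.68 ± 0.027 in the third and 0.69 ± 0.0082 in the highest. In the highest group, above 37.2 TPM, the long genes had a median signal of 0.324 ± 0.031 and the shorter genes 0.199 ± 0.021.

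The mark rose with length over the whole range of gene lengths, and most of the rise lay below 3500 bases. At the lit start of the set2delta light-to-dark course the median signal was 0.054 ± 0.0069 (SD, n = 3) in 920 genes under 500 bases, 0.121 ± 0.013 in 1976 genes from 1000 to under 2000 bases and 0.177 ± 0.019 in 875 genes from 2000 to under 3500 bases. It was 0.195 ± 0.02 in the 188 long genes under 5000 bases and 0.215 ± 0.021 in the 64 genes of 5000 bases or more. These classes were not matched for RNA. The last 3 classes stood in the same order in each library, with steps about as large as the SD between libraries.

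**Figure D3:**
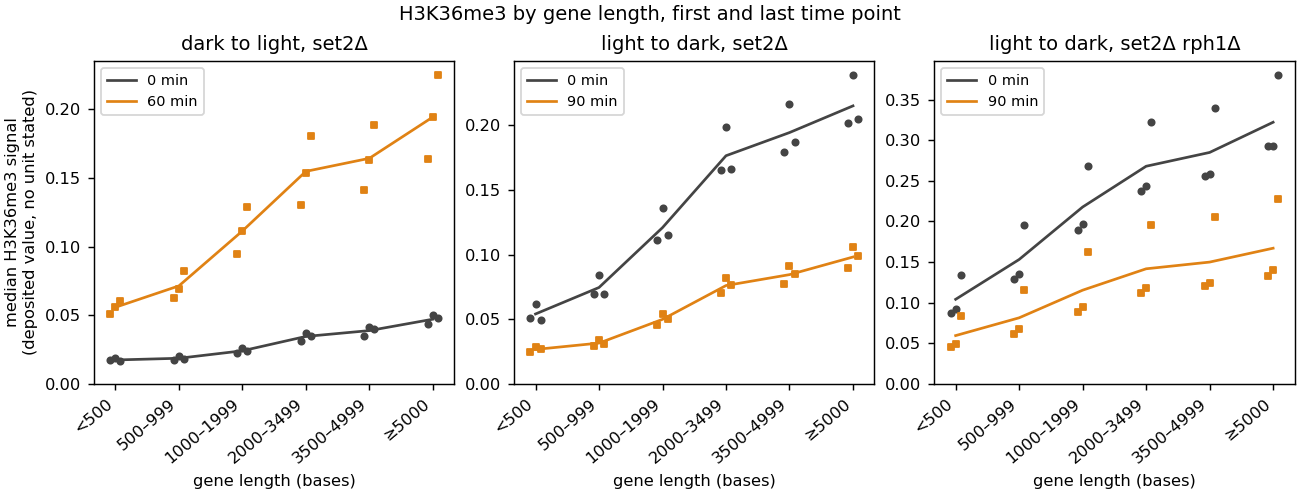
Median H3K36me3 signal (deposited value) by gene length class at the first and last time point of each course. Points are the 3 libraries, lines their means. The medians climb from the shortest class to the longest at both times, from 0.054 to 0.215 at 0 min of the set2delta light-to-dark course.

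Among the long genes themselves RNA level went with the mark far more closely than length did. Across the 252 members Spearman's rho between TPM and the signal in full light was 0.81 at 60 min of the dark-to-light course, 0.77 at 0 min of the light-to-dark course and 0.81 in the course without Rph1. For length the same values were 0.11, 0.12 and 0.10. The order of the genes hardly differed between courses or times: rho was 0.97 between the 0 min signals of the 2 light-to-dark courses and 0.96 between 0 and 60 min of the dark-to-light course. These are descriptions across genes, which share libraries and are not independent replicates.

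The 3 highest long genes at the lit start of the set2delta light-to-dark course were FAS1 at 0.559, 0.637 and 0.55 in the 3 libraries, ACC1 at 0.537, 0.62 and 0.538, and RPO21, the largest subunit of RNA polymerase II, at 0.526, 0.597 and 0.519. The order of these 3 was the same in each library, with gaps smaller than the range between libraries. At the other end stood VTH1, a gene related to the vacuolar sorting receptor gene VPS10, with 0.0892, 0.0127 and 0.0231, and the flocculin genes FLO10 (0.0568, 0.0651 and 0.0511) and FLO11 (0.0582, 0.058 and 0.064). The flocculins, cell wall adhesins that are mostly silent in laboratory strains, had a median RNA level of 0.681 TPM and a median signal of 0.0651. HFM1 had 0.0627, 0.0638 and 0.0564, and AUS1 0.0605, 0.0709 and 0.0688. Values of VTH1 are uncertain, because its 4650 bases differ from those of VTH2 at 1 position. With the 6 flocculin and transposon genes of repeated sequence left out, the excess over matched genes at 0 min of that course was 0.64.

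Light restored the mark over nearly every long gene. All 3 libraries at 60 min lay above all 3 at 0 min in 251 of 252 members, where 99.5% of all genes did so, and YAR009C, a transposon gene, was the exception. The fitted slope was positive and past an adjusted p of 0.05 in 250 of the 250 members that passed the filter on low values (limma, Benjamini-Hochberg over 4816 genes; 99.9% of all genes tested). The members' median slope was 1.93 log2 units per hour, against 1.97 in the matched genes and 1.87 in all genes.

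The timing of the gain differed between the classes by less than the spread between libraries. The long genes had reached 24.7% ± 5.5 (SD, n = 3) of their 60 min gain at 20 min and 64.2% ± 4.1 at 40 min, and the matched genes 25.7% ± 4.6 and 63.6% ± 4.5. At 60 min the long genes stood at 4.03, 3.99 and 4.88 times their 0 min level and the matched genes at 4.45, 4.41 and 5.53 times. The fold was lower for the long genes in each of the 3 replicate numbers, although the ranges overlap. Class shares and folds, here and below, set libraries of the same number against each other, and these are not known to be pairs. From the means of the 3 libraries the folds were 4.30 for the long genes and 4.80 for the matched genes. The excess over matched genes fell by 0.07 ± 0.029 log2 units per hour in this course, a direction that turned to a gain of 0.13 with the larger pseudocount.

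Darkness removed the mark from the long genes at much the same pace as from the rest. In set2delta cells all 90 min libraries lay below all 0 min libraries for 250 of 252 members (98.3% of all genes), and 250 of 252 fell past the threshold (limma, 99.6% of all genes tested). Their median slope was -0.74 log2 units per hour, against -0.77 in matched genes and -0.75 in all genes. The long genes kept 73.4%, 63.7% and 71.2% of their 0 min level at 30 min in the 3 replicate numbers, 50.7%, 50.2% and 55.8% at 60 min, and 42.6%, 41.9% and 45.4% at 90 min. The matched genes kept 41%, 40.3% and 43.5% at 90 min, lower in each number by less than the spread between libraries.

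In cells without Rph1 the long genes kept 46.1%, 48.4% and 60.9% at 90 min and the matched genes 46.6%, 48% and 61.8%. All 90 min libraries lay below all 0 min libraries for 248 of 252 members (98.4%), against 93.2% of the matched genes and 83.8% of all genes. The fall passed the threshold in 250 of 252 members (limma, 97.4% of all genes tested), with a median slope of -0.56 log2 units per hour. Without replicate 2 no member passed, while the median slope was -0.53. Without replicate 3, whose libraries had the highest signal, 250 passed and the median slope was -0.64. The share left varied little from one long gene to the next, with quartiles of 52 and 53.8% without Rph1 and of 43.1 and 45.8% in set2delta cells, and with medians of 52.9% and 44.6%.

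To compare genes within a course apart from the overall gain or loss, each library was centred on its median gene before the slope was fitted. A positive relative slope then means a faster gain in the light or a slower loss in the dark than the median gene. Faster and slower are meant on the log2 scale, so a slower gain can go with a larger rise in signal. In the dark-to-light course 46 of 250 long genes gained faster (14.0% of all genes tested) and 67 gained more slowly (37.0% of all genes), by limma at an adjusted p of 0.05. These were 18.4% and 26.8% of the long genes, the latter below the share in all genes. Among the 235 matched genes tested, 62 gained faster and 55 more slowly. Centring on the genes of 1000 to 2000 bases instead gave 30 faster and 106 slower long genes. A pseudocount of 1 times the median gave 166 and 25, and leaving out replicate 2 gave 21 and 34.

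**Figure D4:**
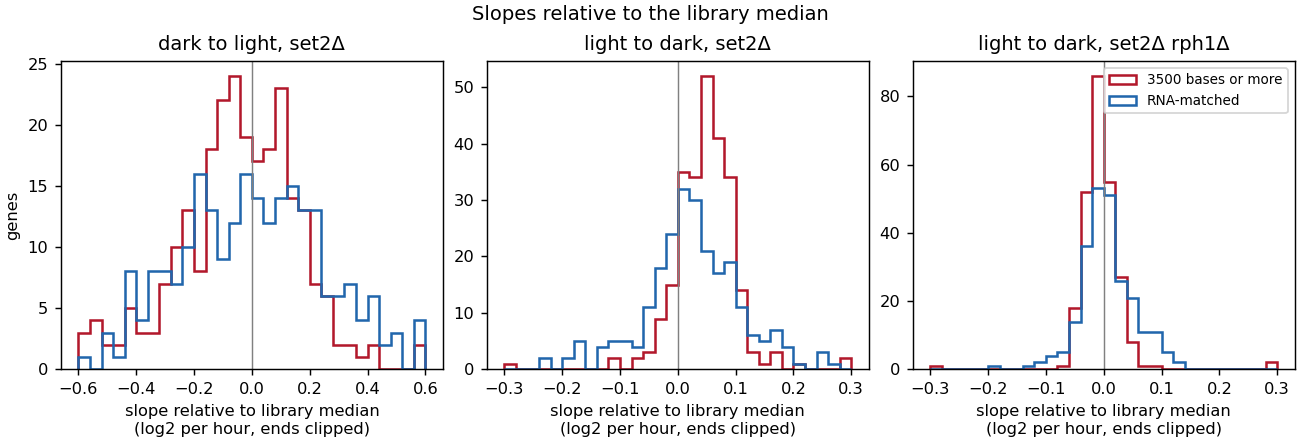
Number of genes by slope relative to the library median (log2 per hour, values beyond the axis drawn in the end bins) for long and matched genes in the 3 courses. The long genes are spread over both sides of 0 in the light and, in set2delta cells, centred slightly above 0 in the dark (median 0.05).

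In the set2delta light-to-dark course 44 of 252 long genes lost the mark more slowly than the median gene (14.0% of all genes tested) and 2 lost it faster (5.65%). They made up 17.5% and 0.794% of the long genes. The 64 genes of 5000 bases or more included 17 of the slower ones and none of the faster ones. Among the 237 matched genes tested, 18 lost the mark more slowly and 15 faster. The members' median relative slope was 0.05, against 0.02 in the matched genes and 0.04 in all genes. The calls of long genes rest on small differences. Leaving out replicate 1, 2 or 3 left 28, 3 and 2 slower long genes, and no filter on low values left 17. A pseudocount of 0.01 times the median gave 77, and one of 1 times the median gave 28 slower and 153 faster.

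Without Rph1 no long gene departed from the median gene in either direction, where 0.187% and 1.20% of all genes did. At an unadjusted p under 0.05 there was 1 of 252, against 639 of 4815 in all genes, and limma was the tool used throughout. The test of the difference in relative slope between set2delta;rph1delta and set2delta cells called none of 252 members in either direction, against 0.0637% and 0.0849% of all genes. Its members' median was -0.06 log2 units per hour, against -0.03 in all genes. By limma 49 of 252 members had an unadjusted p under 0.05, against 566 of 4712 in all genes, and the members' smallest adjusted p was 0.153. With the larger pseudocount 9 long genes were slower and 118 faster without Rph1, and the median difference between genotypes turned to 0.0189, with 1 call.

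The relative changes were also split by phase. In the first 20 min of light 6 long genes ran ahead (7.70% of all genes) and 6 fell behind (4.11%), and from 20 to 60 min 11 ran ahead (2.28%) and 7 fell behind (9.16%). Of the 235 matched genes tested 27 ran ahead and 2 fell behind in the first 20 min, and 10 and 11 did so from 20 to 60 min. With any replicate left out the counts of long genes were between 0 and 3, and with the larger pseudocount they were 56 and 2, then 110 and 12. A replicate block raised each of them, with the counts given in the closing section. In the light-to-dark course of set2delta cells no long gene passed in the first 30 min, nor from 30 to 90 min. An unadjusted p under 0.05 (limma) was found for 5 and 33 of 252 long genes, against 412 and 829 of 4813 in all genes. The shares of all genes were 0.0416% up and 0.125% down in the first phase and 0.312% and 0.499% in the second. With the larger pseudocount 2 long genes were slower and 38 faster in the first phase, and 10 and 75 in the second.

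The precision was better for long genes. The median residual SD of the relative fit was 0.0626 log2 units in the long genes and 0.0885 in the matched genes in the dark-to-light course, and 0.0523 against 0.0716 in the light-to-dark course. A departure of a given size therefore passes the test more readily in a long gene than in a matched one.

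The 8 longest members were REA1, DYN1, TRA1, TOM1, VPS13, IRA1, IRA2 and CSF1. REA1 (YLR106C), also called MDN1, encodes the giant ATPase of large ribosomal subunit assembly and spans 14733 bases on the minus strand of chromosome XII, from 349006 to 363738 in R64. Its signal went from 0.0463, 0.0519 and 0.0498 in the dark to 0.137, 0.156 and 0.181 after 60 min of light, 3.2-fold, and its relative slope was -0.35 ± 0.061 (SE) log2 units per hour (limma, adjusted p = 5.0e-04). With the larger pseudocount this call was lost (-0.0121). In the dark REA1 kept 44.2% at 90 min, with a relative slope that did not pass.

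DYN1 (YKR054C), the dynein heavy chain gene, is the second longest at 12279 bases. Its signal rose from 0.0281, 0.032 and 0.0307 to 0.107, 0.13 and 0.155 in the light, in step with the median gene (-0.02). In darkness it kept 46.1% and lost the mark more slowly than the median gene by 0.08 ± 0.019 log2 units per hour (limma, adjusted p = 0.0175), a call lost when any replicate was left out and whose sign turned with the larger pseudocount (-0.0141).

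TRA1 (YHR099W), the scaffold of the SAGA and NuA4 acetyltransferase complexes, rose from 0.0549, 0.0627 and 0.061 to 0.196, 0.233 and 0.271. It kept 45.9% after 90 min of darkness, with a relative slope of 0.07 (limma, adjusted p = 0.0471) that did not pass with any replicate left out and was -0.09 with the larger pseudocount. TOM1, a HECT ubiquitin ligase gene, rose 4.22-fold and kept 42.8%, and passed in neither course.

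IRA1 and IRA2 are a pair of genes of almost equal length, 9279 and 9240 bases, which encode GTPase-activating proteins that switch off RAS. IRA1 went from 0.0392, 0.0447 and 0.0441 to 0.173, 0.199 and 0.242 in the light and gained faster than the median gene by 0.18 ± 0.043 (limma, adjusted p = 0.00307). IRA2 went from 0.0456, 0.056 and 0.0521 to 0.187, 0.219 and 0.246, with a relative slope of 0.02 (adjusted p = 0.744). IRA1 did not pass with replicate 2 left out or with the smallest pseudocount, and the difference between the genes was not tested.

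VPS13 and CSF1 encode long proteins of membrane contact sites. VPS13 rose from 0.0305, 0.033 and 0.0293 to 0.133, 0.148 and 0.172 in the light and gained faster than the median gene by 0.18 (limma, adjusted p = 0.00755), a call lost without replicate 2 and when centred on the genes of 1000 to 2000 bases. CSF1 rose 4.36-fold, with a relative slope of 0.00. In darkness they kept 46.5% and 46%, with relative slopes of 0.09 (adjusted p = 0.0383) and 0.10 (adjusted p = 0.0131), both lost with any replicate left out.

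**Figure D5:**
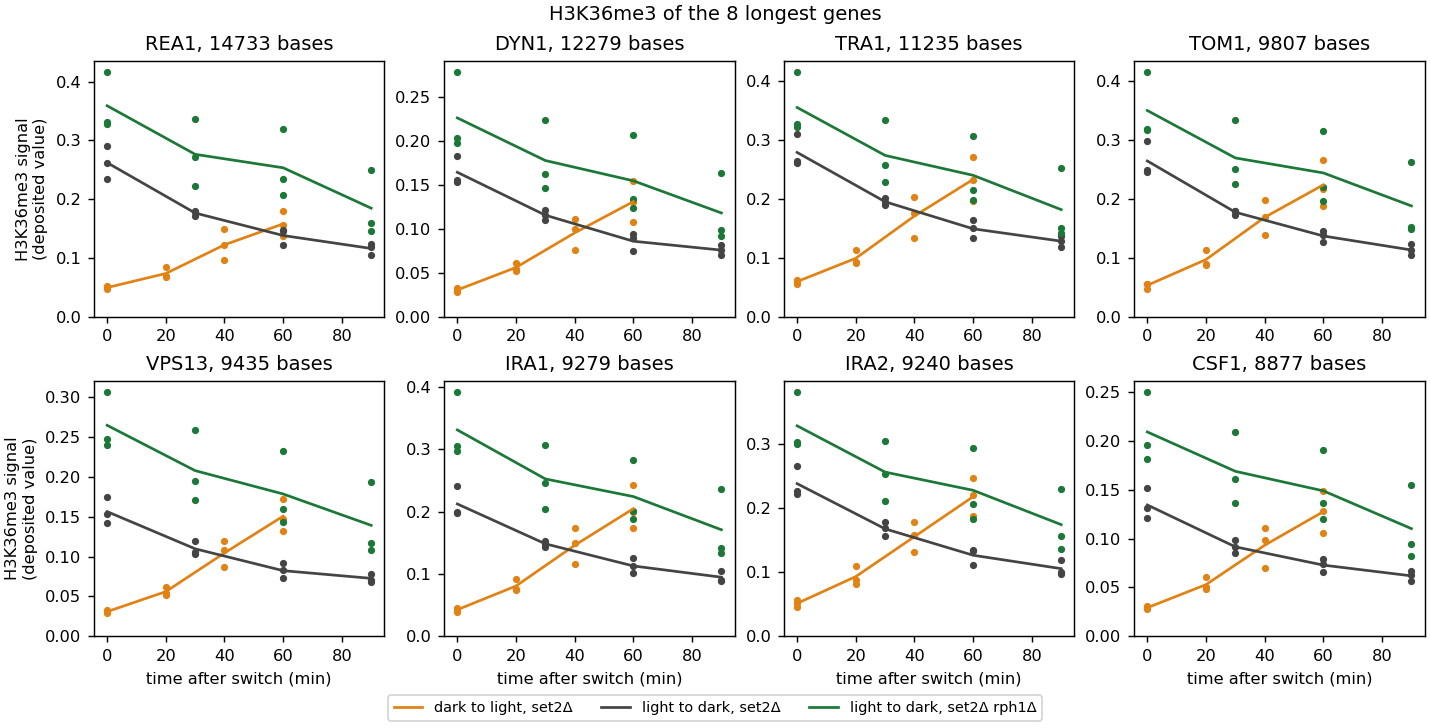
H3K36me3 signal (deposited value) of the 8 longest genes against minutes after the light switch in the 3 courses. Points are libraries and lines join the means of 3. Each gene gains the mark in the light and loses it in the dark, and REA1 has the smallest fold gain (3.2-fold). Courses come from separate tables, so heights are not compared between them.

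Among the called long genes PMC1, GSC2 and VTH1 had the most positive relative slopes in the light. PMC1 (YGL006W), the vacuolar calcium pump gene, went from 0.0272, 0.0319 and 0.0281 to 0.165, 0.196 and 0.225, 6.72-fold, with a relative slope of 0.57 ± 0.083 (limma, adjusted p = 1.67e-04). GSC2 (YGR032W), a catalytic subunit gene of glucan synthase, went from 0.0593, 0.0697 and 0.0709 to 0.315, 0.365 and 0.478, 5.79-fold (0.43 ± 0.12, adjusted p = 0.00723). Both passed under every alternative. VTH1 was listed near 0 in the dark (5.86e-04, 6.86e-04 and 6.55e-04) and between 0.085 and 0.215 at 60 min, which gives its slope little precision (2.66 ± 0.88).

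Outside the repeated features the most negative relative slopes in the light were those of RPA190, NEW1 and ACC1, all with a dark signal above the members' median of 0.04. In signal units RPA190 and ACC1 rose by more than the median of the long genes, which went from 0.0402 to 0.173. RPA190 (YOR341W), the largest subunit of RNA polymerase I, went from 0.0819, 0.0993 and 0.104 to 0.218, 0.237 and 0.297, 2.64-fold (-0.58 ± 0.072, limma, adjusted p = 7.8e-05). NEW1 (YPL226W), an ABC-F protein gene of translation, rose 2.71-fold (-0.56 ± 0.083, adjusted p = 1.96e-04), and ACC1 rose from 0.21, 0.201 and 0.24 to 0.55, 0.568 and 0.697, 2.79-fold (-0.54 ± 0.13, adjusted p = 0.00324). The larger pseudocount ended all 3 calls and turned the sign for NEW1 (0.05) and ACC1 (0.17). Their folds, which use no pseudocount, lie below the lower quartile of the long genes (3.76-fold). Among the repeated features the transposon gene YAR009C (-0.98 ± 0.35, limma, adjusted p = 0.0318) and FLO9 (-0.59 ± 0.13, adjusted p = 0.00235) were slower still, with 1.72-fold and 2.92-fold gains.

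In darkness HFM1, PDR18 and RAD50 had the most positive relative slopes among the members called outside the repeated features. By the share kept at 90 min, which uses no pseudocount, other called members stood higher, such as BEM2 (48.7%) and SMC1 (48.4%). HFM1 kept 47.8% at 90 min, PDR18, an ABC transporter gene, 47.3% and RAD50, of the MRX repair complex, 47.6%, with relative slopes of 0.16, 0.15 and 0.13 (limma, adjusted p of 0.0403, 0.0141 and 0.0101). The 2 faster genes were ADR1 (YDR216W), an activator of glucose-repressed genes, and TOP2 (YNL088W), DNA topoisomerase II. ADR1 fell from 0.22, 0.271 and 0.236 to 0.083, 0.102 and 0.0877, leaving 37.5%, and TOP2 from 0.151, 0.203 and 0.162 to 0.0575, 0.0713 and 0.061, leaving 36.8% (relative slopes -0.12 and -0.11, adjusted p = 0.00693 and 0.0124). Their 0 and 90 min libraries did not overlap. The calls of HFM1, PDR18, RAD50, ADR1 and TOP2 each failed in at least 2 of the 3 fits that left out a replicate. Of the flocculins, FLO9 kept 64.3% and FLO10 47.0%, with relative slopes of 0.39 and 0.16 (limma, adjusted p = 4.20e-04 and 0.0213).

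Of the long genes, 124 belong to 18 functional lists. These lists do not hold every long gene of a function, so the counts below are for the listed genes only. The genes of ribosome assembly moved in 1 direction in the light: all 8 members gained more slowly than the median gene (37.0% of all genes tested did), with folds from 2.78 to 3.65 and a median of 3.26, against a median of 4.21 for the long genes. Besides REA1 they included UTP20, of the small subunit processome, which went from 0.0536, 0.0558 and 0.0598 to 0.163, 0.174 and 0.222. With the larger pseudocount 1 was slower and 1 faster, and at least 7 were slower under all other alternatives.

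The large subunits of the RNA polymerases did likewise. All 5 (RPO21, RPA190, RPO31, RPB2 and RPA135) gained more slowly, with a median fold of 3, while the larger pseudocount made 3 of them faster. RPO21 went from 0.157, 0.177 and 0.194 to 0.472, 0.525 and 0.583, a larger rise in signal than that of the median long gene. The 3 long genes on the lipid synthesis list (ACC1, FAS1 and FAS2) were also slower, with folds from 2.79 to 2.95. They had the highest RNA levels of any list (median 776 TPM). With the larger pseudocount none of the 3 passed, and without replicate 3 only 1 did.

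The ubiquitin and proteasome list went the other way. Of its 7 long genes 5 gained faster than the median gene (14.0% of all genes tested did) and none more slowly, with a median fold of 4.82. BLM10 (YFL007W), a proteasome activator gene, rose from 0.0297, 0.0342 and 0.0348 to 0.155, 0.171 and 0.202, 5.35-fold (0.29 ± 0.049, limma, adjusted p = 3.59e-04). UBR1, the ligase gene of the N-degron pathway, had a relative slope of 0.17 (adjusted p = 0.0123). Between 2 and 6 members were faster under the alternatives, the fewest without replicate 2, and 1 was slower when centred on the genes of 1000 to 2000 bases.

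The other lists were mixed in the light, where 14.0% of all genes tested were faster and 37.0% slower. Counts of 3 slower of 8, 2 of 5 or 1 of 3 in these lists are near that share. Among 13 genes of vesicle traffic and membrane contact 5 were faster and 1 slower, and among 15 listed ABC transporters and P-type ATPases 5 and 5. The latter list leaves out long transporter genes such as PMC1 (relative slope 0.57) and AUS1 (-0.49). Among 7 giant kinases only TEL1, a DNA damage kinase gene, was faster (0.20 ± 0.039, limma, adjusted p = 9.39e-04). No listed gene was faster and 3 were slower in each of the lists of 6 chromatin remodelling genes, 8 nuclear pore genes and 8 genes of SMC complexes and cohesion. With the larger pseudocount these 3 lists turned to 5, 8 and 3 faster genes, with 1 slower in the last. The cytoskeletal list had 1 faster and 3 slower of 10, which turned to 9 and 1 with the larger pseudocount, RAS and cyclic AMP signalling 2 and 0 of 5, replication and repair 1 and 2 of 9, and cell wall synthesis 1 and 1 of 4. Of the remaining lists, the multienzymes of nucleotide and amino acid synthesis had 2 slower of 5, splicing and RNA processing 1 of 4, translation 1 of 3 and the flocculins 2 of 2 tested.

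In the set2delta light-to-dark course slower loss was called in 4 of 8 members of the SMC and cohesion list, 3 of 6 chromatin remodelling genes and 2 of 4 flocculins (14.0% of all genes tested). The 8 genes of SMC complexes and cohesion kept a median of 46.4% at 90 min, against 44.6% of the long genes. ESP1, the separase gene, went from 0.146, 0.188 and 0.156 to 0.0648, 0.0874 and 0.0783 (0.11 ± 0.033, limma, adjusted p = 0.036). No SMC or cohesion gene passed without replicate 2, without replicate 3 or with no filter on low values, and 2 were faster with the larger pseudocount. None of the 8 ribosome assembly genes, 8 nuclear pore genes or 7 ubiquitin and proteasome genes passed in this course, while the larger pseudocount made 8, 8 and 4 of them faster. It also made all 6 chromatin remodelling genes faster.

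At the length limit itself, genes of nearly the same length differed widely. Just inside, FLO10 and RAD5 have 3510 bases and SMC2 3513, with signals at 0 min of the light-to-dark course of 0.0577 ± 0.007, 0.128 ± 0.018 and 0.222 ± 0.016 (SD, n = 3). Just outside, CHS3 and VAC7 have 3498 bases and KEL1 3495, with 0.256 ± 0.024, 0.186 ± 0.02 and 0.219 ± 0.025. These genes also differed in RNA level in dark set2delta cells. It was 3.24, 10.7 and 14.6 TPM for FLO10, RAD5 and SMC2, and 34.1, 18.5 and 21.4 TPM for CHS3, VAC7 and KEL1.

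The RNA of the long genes was measured over the same courses in set2delta cells. Between 0 and 60 min of light, with 2 libraries at 60 min, none of the 248 long genes tested passed (limma on log2 of TPM + 1), where 0.0508% of all genes rose and 0% fell. At an unadjusted p under 0.05 there were 58 of the 248, against 1159 of 5907 in all genes (limma). The median change was 0.10 against 0.08 in all genes. Between 0 and 90 min of darkness 1 of 246 rose (1.65% of all genes) and none fell (0.306%). It was PYC1 (YGL062W), a pyruvate carboxylase gene, with 137, 133 and 137 TPM at 0 min and 312, 266 and 236 TPM at 90 min (0.99 ± 0.19, adjusted p = 0.0236). The libraries do not overlap, but the call was lost without replicate 2 and without replicate 3. Over the same time PYC1 kept 41.8% of its H3K36me3.

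The authors' deposited table of model estimates gives an estimate per gene with 95% bounds for each course, from 2 models named ZOIBeta and ZINeg. In the ZINeg model the authors' deposited table puts 242 of 252 long genes above 0 in the light (96.0%, against 86.9% of all genes and 94.0% of the matched genes). For the set2delta light-to-dark course the authors' deposited table puts 220 long genes below 0 (87.3%, against 62.8% of all genes and 75.3% of matched genes), with a median estimate of -0.55 against -0.58 in matched genes. The median error of these ZINeg estimates in the authors' deposited table is 0.176 for long genes and 0.211 for matched genes. In the ZOIBeta model the authors' deposited table puts 241 long genes above 0 in the light (95.6%, against 96.2% of all genes and 98.8% of the matched genes) and 210 below 0 in that course (83.3%, against 79.1% and 86.5%). For the course without Rph1 the authors' deposited table puts 6 long genes below 0 (2.38%, against 3.65% of all genes) in the ZINeg model, and 217 (86.1%, against 79.1% of all genes and 92.0% of the matched genes) in the ZOIBeta model.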

How the data were processed

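H3K36me3 was measured by chromatin immunoprecipitation sequencing with Schizosaccharomyces pombe chromatin as a spike-in, and RNA by sequencing, per the labels' protocols. The authors deposited a signal per gene and library for the mark, whose scaling is not given in the sources used here, TPM per gene with gene lengths, and tables of model estimates, used here as scores with their bounds. The submitters' processing notes name STAR 2.5.2b and 2.5.4b, SAMtools 1.3.1, Salmon 0.8.1, bedtools 2.26, deepTools 2.5.4 and cutadapt 1.12, and the builds sacCer3 and ASM294v2. The depth behind the values is unknown.

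The members and lists were chosen with earlier results of these data known. Signals were taken as log2(signal + 0.1 times the table's median) and genes under the 10th percentile of the mean left out. Slopes over time in hours, steps between times and the difference between genotypes were fitted with limma 3.58.1 in R 4.3.3 across all genes, with Benjamini-Hochberg adjustment and a threshold of 0.05. Relative slopes used libraries centred on their median gene. RNA was tested as log2(TPM + 1) for genes with a mean of at least 1 TPM. Partners were matched within 0.1 log2 units of TPM + 1 (largest gap 0.0306), each used once. Gene positions and names came from the RefSeq annotation of R64, and the length of 250 members equals their annotated span. Text names follow fixed rules: the 8 longest, 3 on each side of the length limit, 3 at each end of the relative slopes (repeated features named apart) and of the signal, and the 2 longest of each list where described. Other list members, and AUS1, were named after their values were seen. The fits were tested on simulated data. Alternatives were other pseudocounts, filters, matchings, length limits, centrings, a variance trend on length, a replicate block and leaving out each replicate.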

Additional observations from a re-analysis of the deposited data

How the results depend on the processing

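The excess of the mark in long over matched genes kept its sign under every alternative run. With a pseudocount of 0.01 times the table median it was 0.66 and 0.51 at the first and last time of the dark-to-light course, and 0.65 and 0.71 in the set2delta light-to-dark course. With 1 times the median it was 0.25 and 0.38, 0.47 and 0.37, and 0.23 and 0.17 in the course without Rph1. Against all genes of 1000 to 2000 bases, unmatched, it was 0.63 and 0.61, 0.70 and 0.72, and 0.40 and 0.38. Matching on RNA at 0 min of the light-to-dark course gave 0.48 at 60 min of light. Matching by strata gave 0.53 there and 0.61 at 0 min of darkness. With a limit of 5000 bases it was 0.65 and 0.61 in the light course and 0.62 and 0.71 in the set2delta light-to-dark course.

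The slope of that excess changed sign with the pseudocount. In the dark-to-light course it was -0.13 with 0.01 times the median, 0.13 with 1 times, -0.0257 unmatched and -0.0190 with a limit of 5000 bases. In the set2delta light-to-dark course it was 0.0421 with 0.01 times the median, -0.0643 with 1 times, 0.00747 when matched on RNA of that course and 0.0683 with a limit of 5000 bases. Without Rph1 it was -0.0391 with 1 times the median. Leaving out a replicate gave -0.0772 to -0.0513, 0.0155 to 0.0256 and -0.0209 to -0.00616.

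Counts of long genes with a relative slope depended on the pseudocount, whose weight differs between genes of low and high signal by construction. With 1 times the median the faster and slower counts in the light were 166 and 25, and in the first and second phase 56 and 2, and 110 and 12. In darkness the slower and faster counts were 28 and 153, by phase 2 and 38, and 10 and 75, and without Rph1 9 and 118, with 1 call for the difference between genotypes. The medians turned to 0.20, -0.0669 and, for the difference, 0.0189. NEW1 and ACC1 turned to 0.0494 and 0.17, and DYN1 and TRA1 to -0.0141 and -0.0946. With 0.01 times the median 77 were slower in darkness, and the median without Rph1 was 0.0062. With no filter 17 were slower in darkness, and the median in the light was 0.00304. Centred on genes of 1000 to 2000 bases, 30 were faster and 106 slower in the light. The causes were not tested.

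Leaving out a replicate gave 21 to 45 faster and 34 to 60 slower genes in the light, 0 to 3 and 0 to 1 in its first phase, and 0 in the second. In darkness it gave 2 to 28 slower and 0 to 2 faster. The slope without Rph1 was called in 0 to 250 members, and its median relative slope was -0.0124 to 0.000851. RNA rises in darkness numbered 0 to 5.

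Same-numbered replicates did not deviate together throughout: the lowest correlation of such pairs was -0.02, -0.26 and -0.18 in the 3 courses of the mark, and -0.07 and 0.03 in RNA. The main fits therefore did not take the numbers as pairs. The class folds, the class shares kept and the slopes of the excess were computed within a replicate number, so their SDs rest on that grouping. The median correlation by number was positive, from 0.0556 to 0.394, against -0.20 to -0.13 between different numbers. A replicate block gave 14 and 24 calls in the first phase of light and 29 and 44 in the second, and RNA rises of 7 in the light and 10 in darkness, and moved no other count over all members by more than 1.5 times. Among the lists it gave 5 slower gains each for chromatin, cytoskeletal and nuclear pore genes, 4 for replication and repair, and slower losses in 2 nuclear pore genes and 1 translation gene. Centring RNA on the library median gave 2 rises and 2 falls in darkness and a median of -0.00826.

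Depth is unknown, so no counting error or detection limit can be given for the mark, and 3 libraries per time limit what a gene can show.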
